A study of Mus musculus with 2 samples.

Results

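Conventional dendritic cells (DCs) were followed in 2 droplet libraries from mice bearing 4T1 liver metastases, 1 labelled liver and 1 labelled spleen. A barcode was taken as a member when the genes Flt3, Batf3, Zbtb46, Xcr1, Clec9a, Cd209a and Clec10a together held at least 2 UMIs (unique molecular identifiers, each standing for 1 captured transcript) and H2-Ab1 held at least 5. Barcodes with more than 1 UMI of Cd79a and Cd79b, more than 1 of Cd3d, Cd3e and Cd3g, or more than 2 of C1qa, C1qb and C1qc were left out as B cell, T cell or macrophage candidates. In all, 134 of 14421 barcodes were members, 72 of 9591 in the liver-labelled library and 62 of 4830 in the spleen-labelled library. Members were thus chosen by their own measured transcripts, so the levels of the 8 positive genes of the rule in members are a description and not a finding.

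Cells came from female BALB/c mice (BALB/cAnNCrl), aged 7 to 8 weeks at purchase, given 4T1 breast carcinoma cells by hemisplenectomy, so that part of the spleen was removed in every group. They were collected 5 days after hepatic arterial infusion (HAI) of vehicle or of CBL0137 at a low or high dose. CBL0137 is an anti-cancer compound that acts on chromatin and the FACT complex. The sources used here do not say which dose levels the low and high dose groups were given. Cells of 2 mice were pooled per group, the methods describe CD11b bead-isolated cells and the labels name leukocytes, and the 3 groups were run together in each library after staining with hashtag antibodies. Each group in each library is therefore 1 pooled sample, no difference below has a replicate check, and all intervals are 95% intervals that cover counting error only. The hashtag sequences, shown because they alone set the group of every barcode, were as follows, in lower case and 5′ to 3′.
A0301, vehicle: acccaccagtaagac
A0305, low dose: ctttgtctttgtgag
A0310, high dose: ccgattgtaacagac

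A barcode was assigned to the hashtag with the most UMIs when that hashtag had at least 10 UMIs and 3 times the next. This assigned 8911 barcodes in the liver-labelled library (median of 4673 gene UMIs over all barcodes) and 4483 in the spleen-labelled library (median of 3368.5). Pairs of values without a library name are given for the liver-labelled library first. The tissue names need care. Clec4f, a Kupffer cell marker, was at 0 CPM (UMIs scaled to a common total of gene UMIs) in the non-member barcodes of the liver-labelled library and at 136 CPM in those of the spleen-labelled library. Alb, the hepatocyte albumin gene, was at 0 against 31.3 CPM, and Stab2, a liver sinusoidal endothelial gene, at 0.307 against 41.4 CPM. File names likewise pair each sample with the other tissue, so the libraries are called by their labels only. Library, tissue and run cannot be told apart.

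Conventional DCs capture antigen and present it to T cells. Type 1 cells carry Xcr1 and Clec9a, depend on the transcription factors Irf8 and Batf3 and are known for cross-presentation on MHC class I, and type 2 cells carry Cd209a, Clec10a and Sirpa and are known for presentation on MHC class II to CD4+ T cells. On activation, DCs switch on Ccr7 and Fscn1 and move towards lymph nodes, and under interferon gamma they make the T cell attracting chemokines Cxcl9 and Cxcl10 together with guanylate-binding proteins and immunity-related GTPases.

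Because much of what follows concerns interferon gamma response genes, the promoter stretches of 4 of these are shown first. The letters searched were TTCNNNGAA for a GAS element (gamma-activated site) and, for an ISRE (interferon-stimulated response element), GAAANNGAAA on both strands (TTTCNNTTTC on the other), in the 250 bases before the RefSeq gene start of build GRCm38.p6. All 4 stretches are on the plus strand, 5′ to 3′, and capitals mark the motif letters.
Irf1, chr11:53769914-53769942: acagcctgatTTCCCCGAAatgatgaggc
Gbp2, chr3:142620594-142620623: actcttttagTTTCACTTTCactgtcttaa
Gbp7, chr3:142530220-142530302: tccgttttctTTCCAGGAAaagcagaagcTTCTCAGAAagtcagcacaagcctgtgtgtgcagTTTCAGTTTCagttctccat
Igtp, chr11:58199501-58199541: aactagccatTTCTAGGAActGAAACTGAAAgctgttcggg
Irf1 held 1 GAS match, Gbp2 1 ISRE match, Gbp7 2 GAS matches and 1 ISRE match, and Igtp 1 of each, 2 bases apart. Of the 13 interferon gamma response genes listed, 11 had a RefSeq promoter entry, 4 had a GAS match and 8 an ISRE match, and Ifi47 and Cxcl9 had neither. Counted the same way, by gene, 8.13% of all 27025 genes with an entry had a GAS match and 3.46% an ISRE match. A match is a description of letters and says nothing of binding.

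The label of conventional DC was checked on genes outside the rule. Cst3, a protease inhibitor gene abundant in DCs, stood at 7008 CPM in members against 553 CPM in the other barcodes of the liver-labelled library, and at 6550 against 893 CPM in the spleen-labelled library. Itgax, which encodes CD11c, stood at 168 against 3.05 CPM and at 128 against 13.5 CPM. Ciita, the master regulator of MHC class II, stood at 360 against 24.8 CPM and at 335 against 18.2 CPM. All 3 genes were more abundant in members than in the other barcodes of both libraries.

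At the edge of the rule, 12 members of the liver-labelled library and 18 of the spleen-labelled library had exactly 2 UMIs of the 7 genes, and 23 and 21 barcodes met every other condition with 1 UMI. In the first library, members with 2 UMIs held 10602 CPM of Lyz2, 146 of Irf8 and 73.1 of Itgax, beside 10463, 209 and 66.0 CPM in the barcodes with 1 UMI, while members with 3 or more held 1764, 578 and 187 CPM. The spleen-labelled members with 2 UMIs held 868 CPM of Lyz2, 748 of Irf8 and 139 of Itgax, against 6395, 367 and 27.5 CPM in the barcodes with 1 and 1996, 865 and 124 CPM in members with 3 or more. Cst3 in the liver-labelled library stood at 3173 CPM in members with 2 UMIs, below the 5174 CPM of barcodes with 1. Members with 3 or more held 7793 CPM. The same values in the spleen-labelled library were 4176, 3805 and 7340 CPM. No member barcode was shared between the libraries, although 15 barcodes overall were. Scrublet, a doublet caller, marked 268 of 9591 barcodes (2.79%) in the liver-labelled library, among them 1 member. It marked 6 of 4830 (0.124%) in the spleen-labelled library, among them no member. Whether the caller worked at so low a rate was not tested, so doublets there may have been missed.

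Some members also carried transcripts of another cell type, and they were not spread evenly over the groups. By limits set after the data were seen, 4 vehicle members of the liver-labelled library carried S100a8 and S100a9, the calprotectin genes of neutrophils, and held 23.8% of that group's UMIs. A further 5 vehicle members and 3 low dose members carried much Lyz2, the lysozyme gene of monocytes and macrophages, with 15.5% and 25.9% of their groups' UMIs. The low dose group there also had 1 member with hemoglobin transcripts, with 11.5% of its UMIs, and 1 with plasmacytoid DC transcripts. In the high dose group of that library, 1 member carried neutrophil transcripts and 1 progenitor transcripts, with 17.6% and 22.2% of the group's UMIs. In the spleen-labelled library, 3 high dose members carried Krt8 and Krt18, keratins of epithelial and 4T1 cells, and these held 137182 UMIs, 28.03% of the group, and 1 carried neutrophil transcripts. Plasmacytoid DC transcripts such as Siglech marked 1, 3 and 5 members of the vehicle, low dose and high dose groups there, and progenitor transcripts marked 3 low dose members. Lyz2 marked 4 low dose members and 1 vehicle member of that library. Other-type members were most common in this low dose group, where 10 of 17 members held 58.7% of the UMIs, 26.7% with Lyz2 and 20.0% with progenitor transcripts. Without these barcodes, 31, 14 and 11 members remained in the liver-labelled library and 13, 7 and 21 in the spleen-labelled library. Values without them are given beside the main results.

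**Figure D1:**
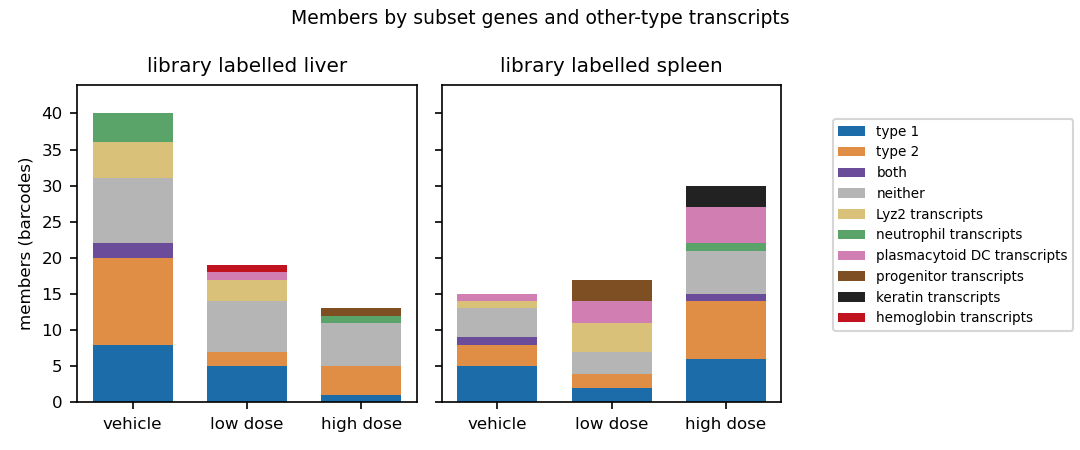
Members (barcodes, y axis) per hashtag group in each library. Members without other-type transcripts are split by subset genes (type 1, type 2, both, neither), and members with transcripts of another cell type are stacked above them. The vehicle group of the liver-labelled library had 40 members and its high dose group 13, while the spleen-labelled library had 15 and 30.

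The share of members was compared first. In the liver-labelled library, 40 of 3360 assigned vehicle barcodes were members (1.19%, exact Clopper-Pearson interval 0.852 to 1.62), against 19 of 3408 at the low dose (0.558%, 0.336 to 0.869) and 13 of 2143 at the high dose (0.607%, 0.323 to 1.04). Both treated shares lay below the vehicle interval, while their own intervals overlapped it. For the spleen-labelled library the shares were 15 of 820 (1.83%, 1.03 to 3.00), 17 of 1318 (1.29%, 0.753 to 2.06) and 30 of 2345 (1.28%, 0.865 to 1.82), with all 3 intervals overlapping. The assigned barcodes also differed in makeup. Neutrophil-type barcodes, with at least 5% of UMIs from S100a8 and S100a9, numbered 1478, 1393 and 250 in the liver-labelled library and 355, 607 and 234 in the other, so the denominators differed between groups. With those barcodes left out of the denominators, the log2 ratio of the high dose share to the vehicle share went from −0.97 to −1.63 (−2.65 to −0.70) in the first library and from −0.52 (−1.46 to 0.48) to −1.18 (−2.12 to −0.18) in the second. With groups assigned by HTODemux in place of the dominant hashtag, the ratio in the second was 0.66 (−0.32 to 1.69), the opposite sign. A smaller share of barcodes and a lower recovery of these cells cannot be told apart here.

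**Figure D2:**
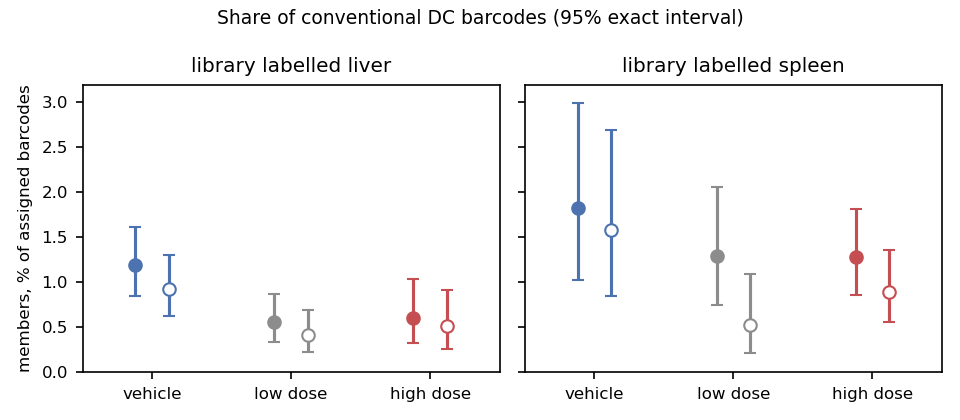
Members as a percent of assigned barcodes (y axis) for vehicle, low dose and high dose in each library, with exact 95% intervals. Filled points are all members and open points members without other-type transcripts. In the liver-labelled library the vehicle share was 1.19% and the treated shares 0.558% and 0.607%.

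By subset genes, members of the liver-labelled library with Xcr1 or Clec9a and without Cd209a and Clec10a (type 1) numbered 9 of 40 in the vehicle group, 6 of 19 at the low dose and 1 of 13 at the high dose. Type 2 members, with the reverse pattern, numbered 13, 5 and 5. Type 1 members of the spleen-labelled library numbered 6 of 15, 5 of 17 and 6 of 30, and its type 2 members 3, 4 and 11. The high dose type 1 share was 7.69% (0.195 to 36.0) in the liver-labelled library and 20.0% (7.71 to 38.6) in the spleen-labelled library, against vehicle shares of 22.5% (10.8 to 38.5) and 40% (16.3 to 67.7), and the intervals overlapped in both. The split depended on depth. With every member thinned to 1000 UMIs, the vehicle and high dose type 1 shares were 12.5% and 7.69% in the liver-labelled library and 13.3% and 10% in the spleen-labelled library, where another draw gave 6.67% for the vehicle group. Many members, 30 and 23, had no UMI of any of the 4 genes.

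The split matched genes outside the rule in part. Type 1 members held 1523 and 1685 CPM of Irf8, and 1256 CPM (liver-labelled library) of Naaa, a lysosomal hydrolase typical of type 1 cells. Type 2 members held 75.9 CPM of Irf8 in the liver-labelled library but 926.5 CPM in the spleen-labelled library, where 41 of the 176 UMIs, or 270 CPM, remained in type 2 members without other-type transcripts. Itgae, which encodes CD103, was at 148 and 294 CPM in type 1 members and at 31.9 and 0 CPM in type 2 members.

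Interferon gamma response genes were higher at the high dose in the spleen-labelled library. Their summed level was 324, 406 and 1602 CPM in the vehicle, low dose and high dose members, from 49, 79 and 784 UMIs. On the log2 scale the high dose ratio to vehicle was 2.31 (1.89 to 2.75, exact conditional binomial interval), and 3.02 without the members that carried other-type transcripts. Of the 13 genes, 11 had the 40 UMIs over both groups needed to be counted, and 10 of these were at least 2-fold higher and none at least 2-fold lower. Their median log2 ratio was 2.18, beside 0.08 over all 2457 genes counted, of which 12% were at least 2-fold higher and 3.38% at least 2-fold lower. Without other-type members, 6 of 6 counted genes were at least 2-fold higher, with a median of 3.42, beside 7.58% of all genes.

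Among the chemokines of this list, Cxcl9 (chr5:92321347-92328079 of GRCm38, minus strand) gave 1, 0 and 173 UMIs in the 3 groups of the spleen-labelled library, a high dose log2 ratio of 5.74 with a wide interval of 3.24 to 11.05. Cxcl10 gave 0, 0 and 44 UMIs, at least 4.53-fold higher at the high dose when the vehicle group is set at the limit of 3 counts over the group. Few barcodes held them, 6 and 5 of the 30 high dose members. Cxcl9 was seen in 1.71% of neutrophil-type barcodes of the same group, at a median of 13711.5 UMIs against 12820.5 in members. Other chemokines were lower. Of the wider cytokine and chemokine list, 3 of 8 counted genes were at least 2-fold higher there and 3 lower, beside 12% and 3.38% of all genes. Its summed log2 ratio was −0.18 (−0.39 to 0.02). Ccl4 gave 49, 40 and 18 UMIs, a ratio of −3.14 (−4.01 to −2.33), with 67.3% of the vehicle UMIs in 1 barcode. Ccl9 (−4.17 and −1.69) and Ccl6 (−3.16 and −1.37) were lower in both libraries.

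The GTPase genes were spread over more members. Gbp2 gave 1, 2 and 55 UMIs, Gbp4 2, 5 and 52, and Gbp7 2, 13 and 65, and these encode guanylate-binding proteins of cell-autonomous defence. The immunity-related GTPase genes Igtp, Irgm1 and Iigp1 gave 4, 14 and 63, 7, 8 and 58, and 4, 4 and 58 UMIs. Gbp7 was found in 18 of 30 high dose members and in 2 of 15 vehicle members, Igtp in 15 and Irgm1 in 10 high dose members. Iigp1 was found in only 8, and 1 keratin-carrying barcode held 30 of its 58 UMIs. Irf1, an early transcription factor of the interferon response, stood at 72.7, 71.9 and 176 CPM, a log2 ratio of 1.27 (0.36 to 2.33). Socs1, a feedback inhibitor, was the 1 counted gene under 2-fold, with a log2 ratio of 0.93 (−0.33 to 2.47).

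The same list in the liver-labelled library stood at 385, 248 and 511 CPM from 164, 63 and 64 UMIs, a high dose log2 ratio of 0.41 (−0.03 to 0.83). Without other-type members the levels were 232, 183 and 531 CPM and the ratio was 1.19. Only Irf1 could be counted there, with 43, 19 and 15 UMIs and a log2 ratio of 0.25 (−0.71 to 1.12). Cxcl9 gave 1, 5 and 2 UMIs, and Cxcl10 none, in these members. The difference between the libraries was not tested.

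**Figure D3:**
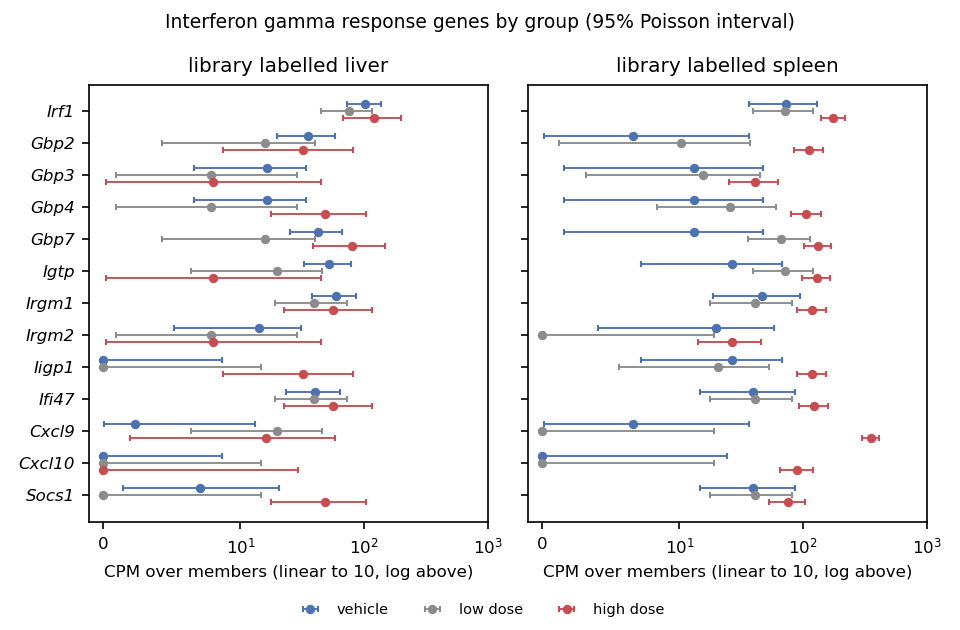
CPM over members (x axis, linear to 10 and logarithmic above) of the 13 interferon gamma response genes in vehicle, low dose and high dose members of each library, with exact 95% Poisson intervals. In the spleen-labelled library Cxcl9 stood at 353 CPM at the high dose and at 6.61 CPM in the vehicle group.

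Member by member, 10 of 30 high dose barcodes of the spleen-labelled library exceeded 1000 CPM of the list (33.3%, 17.3 to 52.8), against 1 of 15 vehicle and 1 of 17 low dose barcodes. Leaving out other-type members gave 9 of 21, 0 of 13 and 0 of 7. Medians per member were 170, 307 and 485 CPM, and the groups overlapped, since vehicle members reached 1832 CPM and 2 high dose members were at 0. A single high dose member with 10328 UMIs held 184 UMIs of the list, among them 99 of Cxcl9, 19 of Cxcl10 and 16 of Gbp2. The same barcode held 7 UMIs of Ccr7, 10 of Fscn1 and 10 of Il4i1, genes of mature DCs. A second with 11858 UMIs held 110, including 47 of Cxcl9, with 12 of Fscn1 and 22 of Il4i1. A keratin-carrying barcode held 169 UMIs of the list but no Cxcl9. Leaving out the barcode with the most list UMIs in each group gave 238, 295 and 1252 CPM. By subset genes, the list stood at 202 CPM in high dose type 1 members, 2307 CPM in type 2 members and 1858 CPM in members with neither, against 132, 188 and 604 CPM in the vehicle group. The first of the barcodes above held 184 of the 299 type 2 list UMIs, and without it type 2 members stood at 964 CPM, while 206 of the 431 UMIs in members with neither came from keratin-carrying barcodes. Medians per high dose member were 197, 380 and 1130 CPM. The difference between subsets was not tested, and 3 vehicle members were of type 2.

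**Figure D4:**
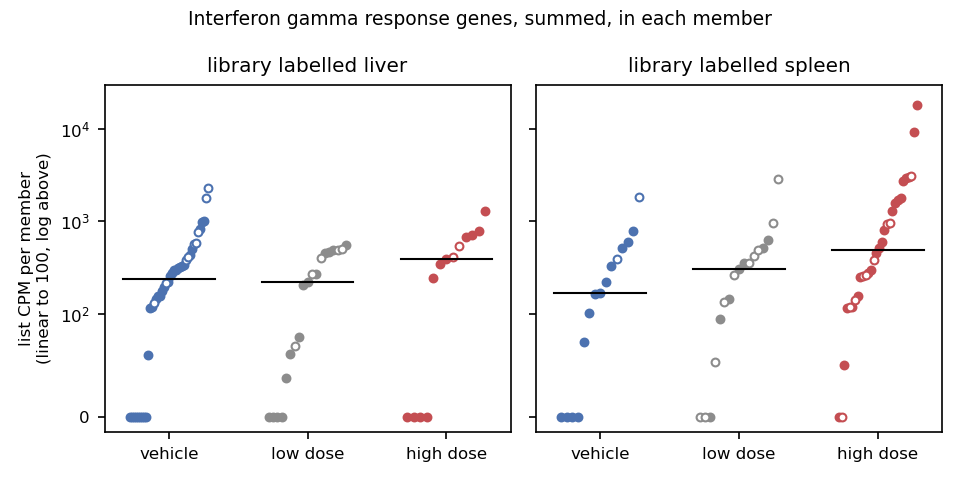
Summed CPM of the 13 interferon gamma response genes in each member (y axis, linear to 100 and logarithmic above), by group and library. Open points are members with other-type transcripts and black lines are medians, which were 170, 307 and 485 CPM in the spleen-labelled library.

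Outside the DCs the list was higher at the high dose in T-type and B-type barcodes and lower in neutrophil-type barcodes of both libraries. All other barcodes of the spleen-labelled library stood at 393, 391 and 818 CPM, T-type barcodes (at least 2 UMIs of Cd3d, Cd3e and Cd3g) at 312, 391 and 842 CPM, and C1q barcodes, macrophage candidates, at 966, 890 and 1097 CPM. B-type barcodes (at least 2 UMIs of Cd79a and Cd79b) stood at 448, 243 and 593 CPM and neutrophil-type barcodes at 264, 255 and 225 CPM. All other barcodes of the liver-labelled library stood at 365, 308 and 511 CPM and T-type barcodes at 399, 460 and 697 CPM, with B-type barcodes at 295, 285 and 376 CPM and neutrophil-type barcodes at 363, 202 and 203 CPM. These barcodes are of the same pooled samples as the members.

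The type I interferon response list was less apart. At the high dose its summed log2 ratio was 0.81 (0.50 to 1.14) in the spleen-labelled library, with 3 of 5 counted genes at least 2-fold higher beside 12% of all genes, and −0.10 (−0.46 to 0.25) in the liver-labelled library, with 1 of 3 at least 2-fold lower, beside 4.8% higher and 11% lower over the 1959 genes counted there. Outside the DCs of the spleen-labelled library the list stood at 386, 339 and 645 CPM over all other barcodes. T-type barcodes stood at 279, 221 and 444 CPM and C1q barcodes at 705, 654 and 985 CPM. B-type barcodes, at 621, 510 and 522 CPM, and neutrophil-type barcodes, at 279, 244 and 206 CPM, were below vehicle at the high dose. All other barcodes of the liver-labelled library stood at 359, 274 and 347 CPM. Isg15, a ubiquitin-like modifier, gave 8, 6 and 52 UMIs in the spleen-labelled library, a log2 ratio of 1.01 (−0.08 to 2.29). Bst2, also abundant in plasmacytoid DCs, stood at 278, 426 and 372 CPM. Of the receptors, Ifngr1 stood at 231, 293 and 147 CPM in that library and at 529, 347 and 248 CPM in the liver-labelled library, where its log2 ratio was −1.09 (−1.69 to −0.55), and −0.38 without other-type members.

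The summed level of genes of mature migratory DCs was higher at the high dose in both libraries, but few barcodes, 2 of 13 and 6 of 30 high dose members, exceeded 1000 CPM. The list stood at 442, 1154 and 1862 CPM in the liver-labelled library and at 271, 437 and 840 CPM in the spleen-labelled library. The high dose log2 ratios were 2.08 (1.79 to 2.36) and 1.63 (1.17 to 2.13), and 1.96 and 1.91 without other-type members. At least 2-fold higher were 2 of 3 and 3 of 4 counted genes, beside 4.8% and 12% of all genes. Medians per member were 395, 451 and 218 CPM in the liver-labelled library, lowest at the high dose, and 255, 303 and 455 CPM in the spleen-labelled library. The list was higher at the high dose over all other barcodes, at 473, 604 and 984 CPM and at 652, 951 and 1329 CPM. T-type barcodes stood at 434, 420 and 744 CPM and at 2919, 4809 and 5243 CPM. Neutrophil-type barcodes were lower at the high dose, at 232, 221 and 138 CPM and at 185, 288 and 162 CPM. B-type and C1q barcodes of the spleen-labelled library were also below vehicle at the high dose, at 917 and 390 CPM against 1030 and 468 CPM. Those of the liver-labelled library stood at 834 and 1638 CPM against 812 and 364 CPM. There 1 barcode held 79.6% of the high dose C1q list UMIs. Among members, leaving out the largest barcode of each group gave 403, 420 and 789 CPM in the liver-labelled library and 254, 373 and 680 CPM in the spleen-labelled library. Among liver-labelled members without other-type transcripts 1 high dose barcode held 87.4% of the list, and leaving out the largest barcode of each group there gave 481, 533 and 288 CPM, lower at the high dose than in the vehicle group.

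Fscn1, an actin-bundling gene of mature DCs, was found in 0 of 40, 2 of 19 and 3 of 13 members of the liver-labelled library, from 0, 31 and 15 UMIs. It was found in the spleen-labelled library in 0 of 15, 0 of 17 and 8 of 30 members, from 0, 0 and 40 UMIs, at least 4.12-fold higher at the high dose. A count of 0 in the 15 vehicle members allows a share of members with a UMI of up to 21.8% by the exact interval. The limit of 3 counts stands at 20.0%. That share among high dose members was 26.7% (12.3 to 45.9), an interval that reaches below both. Without other-type members it was 5 of 21. Fscn1 was found in 1.28% of neutrophil-type barcodes of that group. All 3 keratin-carrying barcodes held it, with 8, 3 and 4 UMIs.

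In the liver-labelled library, 1 low dose member of 10967 UMIs held 29 of the 31 Fscn1 UMIs, with 12 of Ccr7, the lymph node homing receptor, 37 of the chemokine Ccl5, 15 of Relb and 19 of Traf1. A high dose member of 5955 UMIs held 13 of 15, with 5 of Ccr7, 7 of Cacnb3 and 83 of the group's 88 Ccl5 UMIs. Ccl5 thus gave 20, 40 and 88 UMIs, a log2 ratio of 3.90 (3.19 to 4.68) that rests on 1 barcode. Relb, the noncanonical NF-kB subunit, was at least 2-fold higher in both libraries, at 1.21 (0.23 to 2.16) and 1.48 (−0.00 to 3.43), but 14 of its 17 high dose UMIs in the liver-labelled library came from the barcode with neutrophil transcripts, and the ratio there was −1.03 without other-type members. Traf1, an NF-kB target, gave 36, 43 and 30 and 6, 9 and 60 UMIs, with a log2 ratio of 1.63 (0.42 to 3.13) in the spleen-labelled library, and the ratios were 1.32 and 1.82 without other-type members. Over the list of NF-kB subunits and feedback genes, 2 of 5 and 3 of 7 counted genes were at least 2-fold higher, beside the same 4.8% and 12% of all genes, and none at least 2-fold lower. Its summed log2 ratios were 0.63 (0.36 to 0.89) and 0.24 (−0.03 to 0.51), the second with an interval that spans 0.

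Checkpoint and costimulation genes gave few UMIs. Their summed high dose log2 ratio was −0.75 (−1.29 to −0.25) in the liver-labelled library and −0.41 (−0.81 to 0.02) in the other, and −0.60 and 0.06 without other-type members. Cd274, the gene of PD-L1, gave 1, 5 and 27 UMIs in the spleen-labelled library, in 1, 2 and 12 members, a log2 ratio of 3.06 with an interval of 0.46 to 8.42, and 17, 7 and 4 in the liver-labelled library, where the ratio was −0.32 (−2.35 to 1.29). It was under the minimum of 40 UMIs in both libraries. Cd86, a costimulatory ligand, stood at 52.9, 92.4 and 55.2 CPM in the spleen-labelled library. In the liver-labelled library it stood at 63.5, 63.0 and 7.99 CPM, the last from 1 UMI. Vsir, an inhibitory ligand, had −1.56 (−2.92 to −0.44) and −1.75 (−2.60 to −0.90) in the liver-labelled and spleen-labelled libraries. Without other-type members its ratio was 0.19 in the liver-labelled library and −1.43 in the spleen-labelled library.

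The summed level of type 1 DC genes was lower at the high dose in both libraries. The list's summed log2 ratio was −0.79 (−1.01 to −0.58) in the liver-labelled library and −1.08 (−1.21 to −0.96) in the spleen-labelled library, and −0.77 and −0.73 without other-type members. At least 2-fold lower were 3 of 6 and 6 of 9 counted genes, beside 11% and 3.38% of all genes, and none was at least 2-fold higher. The list includes Xcr1, Clec9a and Batf3, which the rule used to find members. Its other 11 genes had summed ratios of −0.77 and −1.11, with 3 of 5 and 5 of 7 counted genes at least 2-fold lower, and ratios of −0.75 and −0.77 without other-type members. Medians of the whole list per member were 1792, 1709 and 2114 CPM in the liver-labelled library, highest at the high dose, and 2871, 2095 and 1737 CPM in the spleen-labelled library.

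Irf8 (chr8:120736358-120756694 of GRCm38, plus strand) gave 212, 192 and 2 UMIs in the liver-labelled library, in 20 of 40, 11 of 19 and 1 of 13 members. Its levels were 498, 756 and 16.0 CPM and the high dose log2 ratio was −4.96 (−8.02 to −3.09). Leaving out other-type members left 191, 134 and 0 UMIs. Irf8 in the spleen-labelled library gave 220, 168 and 310 UMIs, at 1454, 863 and 633 CPM, with a log2 ratio of −1.20 (−1.45 to −0.94). It was found there in 10 of 15, 15 of 17 and 22 of 30 members, so the share of members with a UMI was not lower at the high dose. Without other-type members its counts were 187, 54 and 152 UMIs and the ratio was −1.45. Irf8 was found in 4.82% and 9.40% of high dose neutrophil-type barcodes of the 2 libraries. The difference between the libraries was not tested for Irf8. In the liver-labelled library only 1 high dose member was of type 1, so a lower count of type 1 cells and less Irf8 in each cannot be told apart.

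Naaa had log2 ratios of −2.52 (−3.68 to −1.57) and −1.06 (−1.38 to −0.74). Without other-type members it was less than 2-fold lower in the spleen-labelled library. Naaa was found there in 10 of 15 vehicle and 21 of 30 high dose members, and in 9 of 13 and 18 of 21 without other-type members. In the liver-labelled library 25 of 40 vehicle and 3 of 13 high dose members held it. Ppt1, a lysosomal thioesterase gene, had −2.04 (−2.94 to −1.26) and −1.59 (−2.05 to −1.13). Cd24a, a glycoprotein gene of type 1 cells, had −2.34 (−4.26 to −0.92) and −2.03 (−2.68 to −1.39), and −1.80 in the spleen-labelled library without other-type members. Batf3, which the rule used, was nearly level at −0.45 (−1.17 to 0.21) and −0.30 (−1.03 to 0.48). Flt3, the DC growth factor receptor and also a rule gene, gave 35, 23 and 19 UMIs in the liver-labelled library, at 82.3, 90.6 and 152 CPM. Its counts in the spleen-labelled library were 26, 13 and 13 UMIs, at 172, 66.8 and 26.6 CPM.

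The type 2 list was near level, at −0.10 (−0.43 to 0.22) and 0.00 (−0.27 to 0.28), and at 0.53 and 0.49 without other-type members. Sirpa, an inhibitory receptor of type 2 cells, had log2 ratios of −0.31 (−1.14 to 0.44) and −0.27 (−1.05 to 0.57). Mgl2, a lectin gene, gave 8, 8 and 106 UMIs in the spleen-labelled library, of which 80 came from 1 high dose barcode that also held 20 UMIs of the chemokine Ccl17.

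The summed level of MHC class II genes was less than 2-fold apart. The list's summed log2 ratio was −0.28 (−0.33 to −0.23) and −0.36 (−0.41 to −0.32) at the high dose, and −0.10 and 0.10 without other-type members, so its sign in the spleen-labelled library turned with those barcodes. At the low dose it was −0.24 and −0.73 (−0.78 to −0.67), and −0.16 in both libraries without them. The list includes H2-Ab1, a rule gene, and its other 13 genes had high dose ratios of −0.29 and −0.39, and −0.12 and 0.08 without those members. Cd74, the invariant chain, stood at 16456, 13492 and 14926 CPM in the liver-labelled library and at 14848, 9327 and 12339 CPM in the spleen-labelled library. Ciita had log2 ratios of 0.00 (−0.49 to 0.47) and 0.08 (−0.38 to 0.56). At least 2-fold lower at the high dose were 4 of 13 and 1 of 12 counted genes, beside 11% and 3.38% of all genes, and 1 of 11 in each library without other-type members, beside 6.94% and 2.32%. At the low dose in the spleen-labelled library 3 of 11 were, beside 2.18%, while without those members 1 of 11 was lower, beside 2.72%, and 1 higher. Of the proteases that trim the invariant chain and antigen, Ctss had −1.44 (−1.93 to −0.98) and −0.73 (−1.03 to −0.43), and −1.08 and 0.08 without other-type members. Lgmn gave 47, 26 and 1 and 59, 37 and 30 UMIs, with a log2 ratio of −2.67 (−3.35 to −2.01) in the spleen-labelled library and −2.21 without other-type members.

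Of the MHC class I and cross-presentation genes, none of 12 counted in either library was 2-fold apart, where 4.8% of all genes were higher and 11% lower in the first library and 12% and 3.38% in the second. B2m, the class I light chain, had log2 ratios of 0.65 (0.46 to 0.84) and 0.41 (0.19 to 0.63), and H2-K1, a class I heavy chain, 0.50 (0.24 to 0.76) and 0.63 (0.37 to 0.90). Tap1, the peptide transporter, had 0.09 (−0.82 to 0.93) and 0.12 (−0.53 to 0.82).

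**Figure D5:**
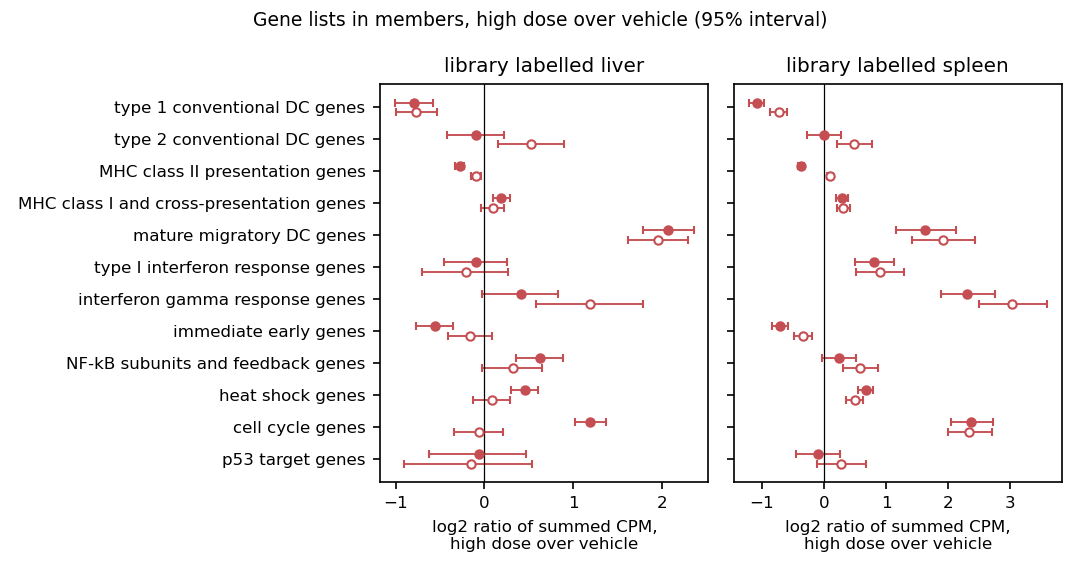
Log2 ratio of summed CPM, high dose over vehicle (x axis), for 12 gene lists in members of each library, with 95% intervals. Filled points are all members and open points members without other-type transcripts. In the spleen-labelled library the interferon gamma list stood at 2.31 and 3.02, and in the liver-labelled library the cell cycle list moved from 1.20 to −0.07.

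The summed level of cell cycle genes was higher at both doses in the spleen-labelled library, through few barcodes, while in the liver-labelled library its direction turned with the barcodes kept. They stood in the spleen-labelled library at 529, 2717 and 2738 CPM, a high dose log2 ratio of 2.37 (2.05 to 2.72) with 12 of 13 counted genes at least 2-fold higher beside 12% of all genes, and 2.34 without other-type members. The low dose ratio was 2.36 (2.02 to 2.72), and 2.54 (2.16 to 2.94) without those members. Of the 256 list UMIs of the 7 low dose members that then remained, 199 came from 1 barcode, and leaving out the largest barcode of each group gave 1.45 (0.85 to 2.06) at the low dose and 2.43 (1.98 to 2.92) at the high dose. Among all low dose members 241 of the 529 list UMIs came from barcodes with progenitor transcripts. Mki67, a proliferation marker, gave 0, 38 and 111 UMIs there, at least 11.4-fold higher at the high dose, and Top2a, the topoisomerase of dividing cells, 0, 35 and 141 UMIs, at least 14.5-fold higher. Of the Mki67 UMIs, 1 high dose barcode held 67 of 111 and 1 low dose barcode 27 of 38, so the Mki67 bound rests mainly on 1 barcode. Only 1 of 15, 5 of 17 and 6 of 30 members exceeded 2000 CPM of the list, and the medians per member were 339, 526 and 246 CPM, lowest at the high dose. The list in the liver-labelled library stood at 1577, 2092 and 3612 CPM, a log2 ratio of 1.20 (1.02 to 1.37), but 1 barcode in each group held 55.7%, 61.2% and 65.9% of its UMIs. The high dose barcode was the 1 with progenitor transcripts, and without other-type members the ratio was −0.07, and 0.74 (0.25 to 1.21) when the largest barcode of each group was left out as well.

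Heat shock genes had summed log2 ratios of 0.45 (0.30 to 0.60) and 0.67 (0.55 to 0.79), and 0.08 and 0.50 without other-type members. Hsp90aa1, the inducible cytosolic chaperone, stood at 219, 449 and 439 CPM in the liver-labelled library and at 370.2, 616 and 1028 CPM in the spleen-labelled library, with log2 ratios of 1.01 and 1.47 (1.07 to 1.90), and 0.14 and 0.83 without those members. Hspa1a, the inducible HSP70 gene, gave 1, 17 and 50 UMIs in the spleen-labelled library and 0, 1 and 1 in the liver-labelled library. The summed level of immediate early genes was lower, at −0.56 (−0.77 to −0.36) and −0.70 (−0.83 to −0.57), and at −0.16 and −0.33 without other-type members. At least 2-fold lower were 3 of 11 and 3 of 12 counted genes, beside 11% and 3.38% of all genes, and without those members 1 of 7 and 3 of 11, beside 6.94% and 2.32%. Fos, of the AP-1 complex, stood at 635, 503 and 168 CPM in the spleen-labelled library, a log2 ratio of −1.92 (−2.36 to −1.48), and −1.27 without other-type members. Its ratio in the liver-labelled library was 0.08 (−0.66 to 0.77).

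FACT is a histone chaperone that is trapped on chromatin under CBL0137. Ssrp1, 1 of its 2 subunits, had log2 ratios of 1.37 (0.43 to 2.29) and 1.22 (0.38 to 2.18), and of 1.07 and 0.70 without other-type members. Supt16, the other, had 0.41 (−0.41 to 1.19) and 0.63 (−0.28 to 1.66). Zbp1, the Z-nucleic acid sensor, gave 4, 12 and 37 UMIs in the spleen-labelled library, a log2 ratio of 1.52 (0.04 to 3.46), and 28, 9 and 2 in the liver-labelled library, a ratio of −2.04 (−5.16 to −0.05) under the minimum of 40 UMIs. Of the p53 targets, Cdkn1a, a cell cycle inhibitor, gave 11, 39 and 79 UMIs in the spleen-labelled library, a ratio of 1.15 (0.23 to 2.21), and 3, 5 and 0 in the liver-labelled library. The p53 list as a whole was at −0.06 (−0.62 to 0.47) and −0.10 (−0.45 to 0.27). In the spleen-labelled library 1 of its 3 counted genes was at least 2-fold higher and 1 at least 2-fold lower, beside 12% and 3.38% of all genes.

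Across all genes, 94 were at least 2-fold higher and 215 lower among 1959 counted in the liver-labelled library, and 294 higher and 83 lower among 2457 in the spleen-labelled library. Without other-type members 2.08% of genes were higher and 6.94% lower in the first, and 7.58% and 2.32% in the second, where 6.91% and 2.11% were without the keratin-carrying members alone. Of 1735 counted in both, 27 were higher in both, 36 lower in both and 8 in opposite directions. The higher genes were led by Stmn1, at 2.77 and 3.73, and Top2a of dividing cells and the tubulin gene Tubb4b, at 1.93 and 1.90. Of the 46 and 43 high dose UMIs of Stmn1 and Top2a in the liver-labelled library 76.1% and 74.4% came from the barcode with progenitor transcripts, and without other-type members the ratios there were 0.91 and 0.24. The higher genes included Ifi27, an interferon-induced gene, at 1.87 (1.06 to 2.68) and 2.67 (1.40 to 4.32). Without other-type members Ifi27 was at 1.06 and 0.66. Bcl2a1b, an anti-apoptotic gene, had 1.36 (0.89 to 1.82) and 1.49 (0.74 to 2.33), and 0.68 and 2.01 without those members. Capg, an actin-capping gene, had 1.77 (0.94 to 2.59) and 1.71 (0.89 to 2.66), but all its UMIs in the liver-labelled library came from members with other-type transcripts.

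The lower genes were led by Apoe, the lipid carrier of macrophages. It gave 817, 84 and 14 UMIs in the liver-labelled library, a log2 ratio of −4.10 (−4.98 to −3.35), and 185, 456 and 29 in the spleen-labelled library, a ratio of −4.37 (−4.99 to −3.80). Without other-type members the ratios were −1.52 and −2.38. A single vehicle barcode of the spleen-labelled library held 69.2% of the 185 UMIs, and the share of members with an Apoe UMI there was 40% (6 of 15) in the vehicle group and 60% (18 of 30) at the high dose, beside 32.1% of high dose neutrophil-type barcodes. The liver-labelled members with an Apoe UMI numbered 29 of 40, 8 of 19 and 8 of 13. Lyz2 gave 1621, 1002 and 5 UMIs and 223, 969 and 240 UMIs, and 38, 5 and 0 and 131, 10 and 230 without other-type members, which Lyz2 itself helped to choose. Ccr2, the chemokine receptor of monocytes and some DCs, gave 155, 125 and 0 UMIs in the liver-labelled library, at least 15.2-fold lower at the high dose, and 29, 27 and 0 without other-type members. Its ratio in the spleen-labelled library was −1.32 (−1.67 to −0.97), and −1.16 without them. The part of monocyte transcripts in these differences was not tested.

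The monocyte list as a whole had a high dose log2 ratio of −2.38 (−2.62 to −2.15) in the first library, with 4 of 6 counted genes at least 2-fold lower beside 11% of all genes, while 2 of 6 were in the second beside 3.38%. Without other-type members the summed ratios were 0.10 and −0.37. The neutrophil list had −2.11 (−2.18 to −2.03) in the liver-labelled library, with 10 of 10 counted genes at least 2-fold lower, again beside 11%, and 0.36 without those members. The neutrophil list of the spleen-labelled library had 0.81 (0.45 to 1.18), and −0.49 without them. Lyz2 of the monocyte list and S100a8 and S100a9 of the neutrophil list helped to set which members were left out. The values of these 2 lists without those members are therefore no separate check. The tumor cell list of that library had 6.67 (5.12 to 8.95), and of its genes Krt8 was found in 4 and Wfdc2 in 3 high dose members.

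The largest single-gene ratios often rested on 1 barcode. Among liver-labelled members Clic3 and 2610528A11Rik gave 48 and 44 high dose UMIs, all from the barcode with neutrophil transcripts, which also held 23 UMIs of Il4i1. Among spleen-labelled members Ccl2, a monocyte-attracting chemokine, gave 1, 2 and 100 UMIs, of which 92 came from 1 keratin-carrying barcode. Rgs1, a regulator of chemokine signalling, was broader, with 2, 11 and 132 UMIs in 2, 4 and 12 members, a ratio of 4.35 (2.47 to 7.41), and 4.89 without other-type members. Ly6a, an interferon-inducible surface gene, gave 1, 2 and 118 UMIs in 1, 1 and 11 members.

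At the low dose, 91 genes were at least 2-fold higher and 92 lower among 2420 counted in the liver-labelled library (3.76% and 3.8%), and 58 and 28 among 1286 in the spleen-labelled library (4.51% and 2.18%). Without other-type members the shares were 2.4% and 2.74%, and 4.76% and 2.72%. Both doses are set against the same vehicle barcodes. The interferon gamma list had low dose log2 ratios of −0.64 (−1.08 to −0.21) and 0.32 (−0.21 to 0.87). Type 1 DC genes had 0.15 (0.02 to 0.28) and −0.98 (−1.14 to −0.82), and 0.15 and −0.56 without other-type members, with 1 of 10 counted genes at least 2-fold higher in the first and 4 of 7 lower in the second. Il1b, the inflammatory cytokine, stood at 186, 492 and 168 CPM in the liver-labelled library and at 119, 596 and 284 CPM in the spleen-labelled library, with low dose ratios of 1.41 and 2.32, and 0.75 and 2.87 without other-type members. In the spleen-labelled library 1 low dose barcode held 75 of its 116 UMIs. Markers of other cell types moved at this dose too, the neutrophil list by −5.50 in the liver-labelled library with 10 of 10 counted genes at least 2-fold lower, and the monocyte list by 0.91 in the spleen-labelled library with 4 of 8 at least 2-fold higher, and −0.42 and −0.20 without other-type members. Genes of both lists helped to choose those members, so the last 2 values are no separate check. The part of these markers in the Il1b ratios was not tested. Apoe differed in sign at this dose, at −2.54 and 0.94, and without other-type members it gave 1 low dose UMI in the spleen-labelled library.

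Vehicle members of the 2 libraries were also set side by side. Irf8 stood at 498 CPM in the liver-labelled library and 1454 CPM in the spleen-labelled library, Naaa at 414 and 906 CPM, and Fos at 174 and 635 CPM. Cst3 stood at 6651 and 10287 CPM, and H2-Ab1, which the rule used, at 5673 and 5163 CPM. Other-type members held 39.3% and 10.4% of the vehicle UMIs, and without them Irf8 stood at 740 and 1380 CPM, Naaa at 558 and 989 CPM and Fos at 96.8 and 642 CPM. These are descriptions of 2 libraries that differ in label, depth, number of members and other-type members.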

How the data were processed

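Raw UMI counts of genes and hashtags were deposited by the authors as filtered matrices, made with Cell Ranger (5.0.0 per the matrix header, 6.0.0 per the submitters' processing notes, build mm10), without cell types. The lowest barcode had 500 gene UMIs, and no further filter was applied. The members and gene lists were chosen with earlier results of these data known.

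UMIs were summed over members per group and library and scaled to CPM over all gene UMIs (425504, 253848 and 125152 UMIs for vehicle and the low and high doses in the liver-labelled library, 151262, 194701 and 489412 in the spleen-labelled library). Shares had exact Clopper-Pearson intervals, CPM exact Poisson intervals and ratios exact conditional binomial intervals, computed with scipy 1.17.1. A gene was counted as higher or lower when it was at least 2-fold apart with at least 40 UMIs over both groups. A count of 0 was set at 3 counts over the group. With 1 pooled sample per group no test was run. The interval code was tested on simulated data.

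Genes were named from the lists, from the 10 largest ratios in each direction and library whose interval did not span 0, and from up to 10 genes per direction past 2-fold in both libraries. Members that carried other-type transcripts were those with at least 1% S100a8 and S100a9, 1% hemoglobin, 0.1% keratin, 0.2% plasmacytoid DC, 0.05% progenitor or 0.5% Lyz2 UMIs. Values of these genes without such members are partly set by the limits. Alternatives included HTODemux (Seurat 5.3.0), Scrublet (scanpy 1.11.5), thinning, stricter rules and leaving out barcodes. Promoter sequences came from RefSeq GRCm38.p6 and gene positions from the GRCm38 reference annotation. A withheld item is not reported here.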

Additional observations from a re-analysis of the deposited data

Results flagged for a closer look

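Among the named genes that reached the minimum of 40 UMIs in each library, 3 were at least 2-fold apart at the high dose in opposite directions with intervals that did not span 0, and the difference between the libraries was not tested for any of them. S100a9, a neutrophil gene, had −1.87 in the liver-labelled library and 1.27 in the spleen-labelled library, and 0.24 and 0.05 without members that carried other-type transcripts. S100a9 itself helped to set which members were left out, so these last 2 values are no separate check. Irf7, a transcription factor of the interferon response, had −1.59 and 1.45, and −1.87 and 2.08 without those members. Snhg1, a small nucleolar RNA host gene, had 2.03 and −1.18, and 0.97 and −1.84 without those members.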

How the results depend on the processing

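No paired analysis was possible because each group was 1 pooled sample per library and no test was run. Counts of genes at least 2-fold apart moved most. Some settings also changed how many genes or members entered, and the cause of the moves was not tested. In the liver-labelled library the high dose counts of 94 higher and 215 lower genes became 54 and 143 with at least 3 UMIs of the 7 genes, 47 and 135 without members at 1% or more S100a8 and S100a9, 35 and 64 in type 2 members, 303 and 467 at a minimum of 20 UMIs, and 17 and 72 at 100. The low dose counts of 91 and 92 became 49 and 39 in type 1 members, 283 and 257 at 20 UMIs and 17 and 27 at 100, with 194 higher by the mean over members, and 53 lower without S100a8 and S100a9 members and 34 lower in type 2 members. For the spleen-labelled library the high dose counts of 294 and 83 became 22 and 29 in type 1 members, 78 and 28 in type 2 members, 698 and 267 at 20 UMIs, and 80 and 28 at 100. The low dose counts of 58 and 28 became 222 and 88 at 20 UMIs, 12 and 6 at 100, and 17 and 14 in type 2 members, with 35 higher at 3 UMIs of the 7 genes and 27 higher in type 1 members.

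Alternatives chosen after seeing the data left out barcodes or, for the type 1 and MHC class II lists, the genes of the member rule. Without other-type members the high dose counts were 24 and 80 in the liver-labelled library and 121 and 37 in the spleen-labelled library, and the low dose counts 35 and 40, and 35 higher. Without keratin members the high dose counts in the latter were 131 and 40. Without the member with most UMIs in each group, 37 genes were higher at the high dose and 29 at the low dose in the liver-labelled library, and 16 lower at the low dose in the other.

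At the high dose the log2 ratio of the member share in the spleen-labelled library turned from −0.52 to 0.66 with HTODemux groups. After thinning to 2000 UMIs it was 0.70 (−1.22 to 3.18), from 11 high dose members. The low dose ratio moved from −0.50 to −2.33 (−8.05 to 1.30) after thinning, from 1 low dose member. Both intervals after thinning span 0. The vehicle type 1 share there moved from 40% to 6.67% after thinning to 1000 UMIs, and to 13.3% (1.66 to 40.5) in another random draw. The interferon gamma list moved from 0.41 to 1.10 in type 2 members and 1.19 without other-type members in the liver-labelled library, and from 2.31 to 0.61 in type 1 members, 3.62 in type 2 members and 3.02 without other-type members in the spleen-labelled library. Directions turned in the liver-labelled library for the mature migratory list at the low dose (−1.17 in type 1 and −1.08 in type 2 members) and the high dose (−0.77 in type 2 members), for Traf1 (−0.45 in type 2 members), and, without other-type members, for cell cycle genes (−0.065) and S100a9 (0.24). S100a9 is itself part of the limits that chose those members. In the spleen-labelled library S100a9 turned to −0.088 with at least 3 UMIs of the 7 genes and −0.20 in type 1 members, and in type 2 members, of which the vehicle group had 3, the type 1 list turned to 2.85, Ccr2 to 0.18 and Hsp90aa1 to −0.084, while Irf8 turned to at least 2.72 and Naaa to at least 1.27 with the vehicle group, at 0 UMIs, set at 3 counts. Alternatives with fewer than 3 members in a group or 20 UMIs gave no value. With 13 to 40 members a group, depth limits most single genes to a few UMIs.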
